A study of Mus musculus with 4 samples.

Results

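Notch receptors, ligands and target genes were described in mouse colon tumours of 4 libraries. The 10 members, taken by gene symbol, were the receptor genes Notch1, Notch2, Notch3 and Notch4, the ligand genes Dll1, Dll4, Jag1 and Jag2, and the target genes Hes1 and Hey1. All 10 were found among the 26214 symbols of the count files, and all 10 passed the expression filter that left 16637 genes for testing. The tumours were of the AOM/DSS model, in which the carcinogen azoxymethane is followed by dextran sulfate sodium, an irritant that damages the lining of the colon. The labels give 2 libraries as Gsk3b IEC-/-, with the kinase gene Gsk3b lost from intestinal epithelial cells, and 2 as Gsk3b IEC+/+, with the gene intact there. Both groups had the same tumour induction. The Cre driver, the deleted exons, strain, sex, age and whether animals were pooled are not given in the sources used here. Nothing in the labels says that each library is a different mouse, so the p-values reflect only the spread between these samples, which may be technical.

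Notch signalling passes between cells that touch. A ligand of the Delta-like or Jagged family on one cell binds a Notch receptor on its neighbour. Proteases then cut the receptor, the last of them the gamma-secretase complex, and the freed intracellular domain joins the DNA-binding protein RBPJ and a Mastermind co-activator to switch on genes such as Hes1 and Hey1. In the intestinal crypt, Notch activity keeps progenitors dividing and directs them toward the absorptive fate, because the HES1 repressor silences Atoh1, the gene that starts the secretory lineages. In blood vessels, Notch signalling patterns sprouts, arteries and the muscle cells around them. GSK3 kinases can phosphorylate Notch intracellular domains in cultured cells.

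Gsk3b itself did not pass the test, with 152 and 149 CPM (each library's counts scaled to a common total of 1000000, with TMM factors) in the libraries labelled IEC-/- and 171 and 157 CPM in those labelled IEC+/+ (log2 fold change -0.12, edgeR quasi-likelihood adjusted p = 0.681, ratio between 0.751 and 1.13). The tissue also holds cells other than epithelium, and the deleted exons are not given, so this count does not check the labels. Why the Gsk3b levels of the groups were close was not tested. Each direction given is that between libraries as they are labelled. Depth was 25472503 to 27218515 counts per library, and each member had 228 to 5108 counts. Epithelial markers such as Krt8 and Krt19 were abundant in every library. IEC-/- replicate 1 correlated with its own group's other library (r = 0.959 across genes) no better than with IEC+/+ replicates 1 and 2 (0.959 and 0.964). IEC+/+ replicate 1 stood apart in smooth muscle genes, whose 10 markers summed to 579 CPM there and to 243 to 331 CPM in the other 3 libraries.

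No member passed the test between the groups. By edgeR's quasi-likelihood test with Benjamini-Hochberg adjustment over all genes, 0 of the 10 members had an adjusted p under 0.05, against 0.884% of all genes tested (147 of 16637, 0.120% higher and 0.763% lower in IEC-/-). DESeq2, edgeR's exact test and limma-voom also called 0 members. Over all genes, DESeq2 called 7.77% (2.90% higher and 4.87% lower), the exact test 5.22% (1.85% higher and 3.37% lower) and limma-voom 0.469% (0.0601% higher and 0.409% lower). Before adjustment, p was under 0.05 for 1 member, Notch1, by the quasi-likelihood test, as it was for 16.6% of all genes. By DESeq2 it was under 0.05 for 2 members, Notch1 and Dll4, and for 2841 of the 16637 genes. By the exact test 1 member, Dll4, was under 0.05 (2382 of all genes), and by limma-voom 1, Notch1 (2653 of all genes). The fitted log2 fold changes of IEC-/- over IEC+/+ ran from -0.67 for Dll1 to 0.63 for Dll4, with a median of 0.20, beside 0.01 over all genes. For 4 members the groups did not overlap in CPM, 3 of them higher in IEC-/- and 1 lower, a share near the 48.0% of all genes for which that held (24.0% higher and 24.1% lower). The count of called genes itself rested on single libraries. It was 0 over all genes without IEC+/+ replicate 1 (1384 at an unadjusted p under 0.05), 0 without IEC+/+ replicate 2 (1754), 729 without IEC-/- replicate 1 and 567 without IEC-/- replicate 2. In the last of these fits 1 member, Dll4, was called.

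**Figure D1:**
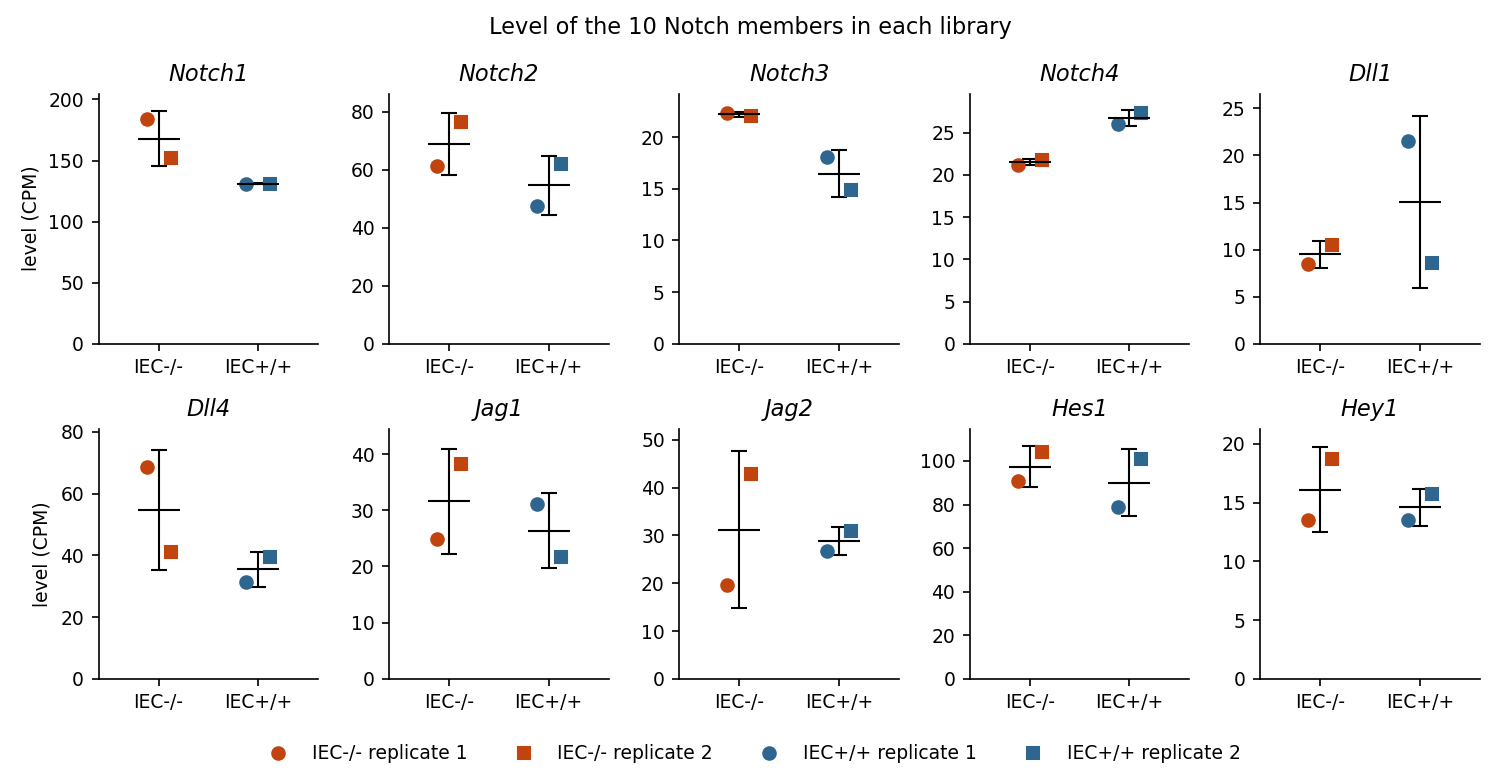
Level of each member in CPM (vertical axes, from 0) in the libraries labelled IEC-/- (orange) and IEC+/+ (blue); circles are replicate 1, squares replicate 2, and bars the mean ± SD of 2 libraries. The groups are apart for Notch1, Notch3, Notch4 and Dll4, and for Dll1 the IEC+/+ libraries lie at 21.5 and 8.63 CPM, with the IEC-/- libraries at 8.45 and 10.5 CPM.

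Notch1 encodes the main receptor of crypt progenitors, where it acts together with NOTCH2. It had 184 and 152 CPM in IEC-/- libraries, against 131 CPM in both IEC+/+ libraries. Both IEC-/- libraries were above both IEC+/+ libraries, and the IEC-/- pair differed more from each other than the IEC+/+ pair did. The means were 168 ± 22.5 CPM in IEC-/- libraries, against 131 ± 0.220 CPM in IEC+/+ (SD, n = 2 each), and the log2 fold change was 0.36 (SE 0.14, adjusted p = 0.290 by edgeR's quasi-likelihood test). The ratio of IEC-/- to IEC+/+ had a 95% interval of 1.01 to 1.63. Without IEC-/- replicate 1 the log2 fold change was 0.20. Notch1 (chromosome 2, 26457903 to 26516663, GRCm38) shares 7.50% of its exon bases with 0610009E02Rik on the other strand, which was counted 1099 and 1137 times in IEC-/- and 1035 and 889 times in IEC+/+. Use of strand is not given in the sources used here, so reads of such a pair cannot be told apart.

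Notch2 (chromosome 3, 98013527 to 98150361) had 61.2 and 76.4 CPM in IEC-/- libraries, against 47.4 and 61.8 CPM in IEC+/+. The groups overlapped, since the higher IEC+/+ library exceeded the lower IEC-/- library. Its log2 fold change was 0.33 (SE 0.19, quasi-likelihood adjusted p = 0.447), with a ratio between 0.913 and 1.74.

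Notch3 (chromosome 17, 32120820 to 32166852), the receptor typical of the muscle cells and pericytes of vessel walls, had 22.4 and 22.0 CPM in IEC-/- libraries, against 18.1 and 14.9 CPM in IEC+/+. The IEC-/- libraries were nearly alike and both were above the IEC+/+ libraries. The log2 fold change was 0.43 (SE 0.19, quasi-likelihood adjusted p = 0.347) and the ratio's interval 0.967 to 1.88. Marker sums of pericytes and vascular mural cells overlapped between the groups. The 9 of that list, with Rgs5 and Pdgfrb the most abundant, summed to 278 and 292 CPM in IEC-/- libraries, against 311 and 258 CPM in IEC+/+, none was at 0, and 0 of 8 tested passed (0 at an unadjusted p under 0.05). Per 1000 CPM of these markers, Notch3 had 80.4 and 75.4 CPM in IEC-/- libraries, against 58.0 and 57.6 CPM in IEC+/+.

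Notch4 (chromosome 17, 34564268 to 34588503), a receptor made largely by endothelial cells, was the receptor gene with lower levels in IEC-/-. It had 21.2 and 21.7 CPM there and 26.1 and 27.4 CPM in IEC+/+. The libraries of each group were close together and the groups did not overlap. The means were 21.5 ± 0.359 CPM in IEC-/- libraries, against 26.7 ± 0.923 CPM in IEC+/+ (SD, n = 2 each), and the log2 fold change of -0.31 (SE 0.15, quasi-likelihood adjusted p = 0.395) had a ratio interval of 0.616 to 1.05. With 1 library left out at a time the log2 fold change stayed between -0.35 and -0.28. Endothelial marker sums ran the other way. The 12 of that list summed to 436 and 388 CPM in IEC-/- libraries, against 365 and 341 CPM in IEC+/+, and none was at 0. Of these markers 0 passed, and 1 was higher at an unadjusted p under 0.05 by the quasi-likelihood test, beside 7.50% of all genes. Positive log2 fold changes were found for 11 of 12, beside 8571 of all 16637 genes tested. Many were small, with a median of 0.19, while Vwf, the most abundant, had 0.55. The groups did not overlap for 5 of the 12 (41.7%, beside 48.0% of all genes). Per 1000 CPM of endothelial markers, Notch4 had 48.7 and 56.0 CPM in IEC-/- libraries, against 71.3 and 80.1 CPM in IEC+/+. With 2 libraries per group the smallest exact two-sided permutation p is 0.333, so these ratios were not tested. In bulk tissue, fewer cells of a type and less RNA per cell cannot be told apart.

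Dll4 (chromosome 2, 119325784 to 119335962), a ligand of sprouting endothelium and of crypt cells, had the largest positive log2 fold change of the members. It had 68.5 and 41.1 CPM in IEC-/- libraries, against 31.4 and 39.5 CPM in IEC+/+. IEC-/- replicate 1 was far above the rest, while IEC-/- replicate 2 was scarcely above the higher IEC+/+ library. The means were 54.8 ± 19.4 CPM in IEC-/- libraries, against 35.4 ± 5.69 CPM in IEC+/+ (SD, n = 2 each) and the log2 fold change 0.63 (SE 0.27, quasi-likelihood adjusted p = 0.329), with a ratio between 0.972 and 2.46. Without IEC-/- replicate 2 the log2 fold change was 0.95 and passed the limit narrowly (adjusted p = 0.0496 by the quasi-likelihood test), and without IEC-/- replicate 1 it was 0.20 (adjusted p = 0.678). Over its 11 alternative fits the adjusted p ran from 0.0496 to 0.784. Per 1000 CPM of endothelial markers Dll4 had 157 and 106 CPM in IEC-/- libraries, against 86.0 and 116 CPM in IEC+/+, so that the groups overlapped on that measure. Dll4 shares 5.56% of its exon bases with Gm14207 on the other strand, which had 334 and 190 counts in IEC-/- and 198 and 226 counts in IEC+/+, again highest in IEC-/- replicate 1.

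Dll1 (chromosome 17, 15367354 to 15376872), the other Delta-like ligand used in crypts, had 8.45 and 10.5 CPM in IEC-/- libraries, against 21.5 and 8.63 CPM in IEC+/+. A single library, IEC+/+ replicate 1, was high, and the other 3 lay close together. The log2 fold change of -0.67 (SE 0.45, quasi-likelihood adjusted p = 0.531) turned to 0.13 without that library and was -1.18 without IEC+/+ replicate 2. The ratio's interval was 0.288 to 1.38. The same library was highest in the smooth muscle sum given above and in fibroblast markers, which summed to 2504 and 2172 CPM in IEC-/- libraries, against 3719 and 2316 CPM in IEC+/+. It was also highest in general epithelial (12083 CPM), mature colonocyte (1700 CPM), goblet cell (5766 CPM) and mural cell markers (311 CPM). The part of any of these cell types in the Dll1 value was not tested. A lincRNA annotated on the other strand, A930024N18Rik, covers 20.6% of the exon bases of Dll1.

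Jag1 (chromosome 2, 137081456 to 137116644) encodes a Jagged ligand that has been described as a target of beta-catenin in colorectal cancer. It had 24.9 and 38.2 CPM in IEC-/- libraries, against 31.1 and 21.6 CPM in IEC+/+. The libraries of the groups interleaved. The log2 fold change was 0.26 (SE 0.28, quasi-likelihood adjusted p = 0.710), with a ratio between 0.738 and 1.94. Beside it, the Wnt feedback gene Axin2, in the list of stem and crypt base markers, had a log2 fold change of 0.63 (adjusted p = 0.0851 by the quasi-likelihood test).

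Jag2 (chromosome 12, 112907819 to 112929776), the second Jagged ligand, had 19.6 and 42.9 CPM in IEC-/- libraries, against 26.8 and 31.0 CPM in IEC+/+. The IEC-/- libraries lay on both sides of the IEC+/+ libraries, replicate 2 having 2.19 times the level of replicate 1. The log2 fold change was 0.11 (SE 0.37, quasi-likelihood adjusted p = 0.921), with a ratio between 0.572 and 2.04. Leaving out IEC-/- replicate 2 gave -0.57 and leaving out IEC-/- replicate 1 gave 0.56, so the 2 libraries labelled IEC-/- pointed in opposite directions.

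**Figure D2:**
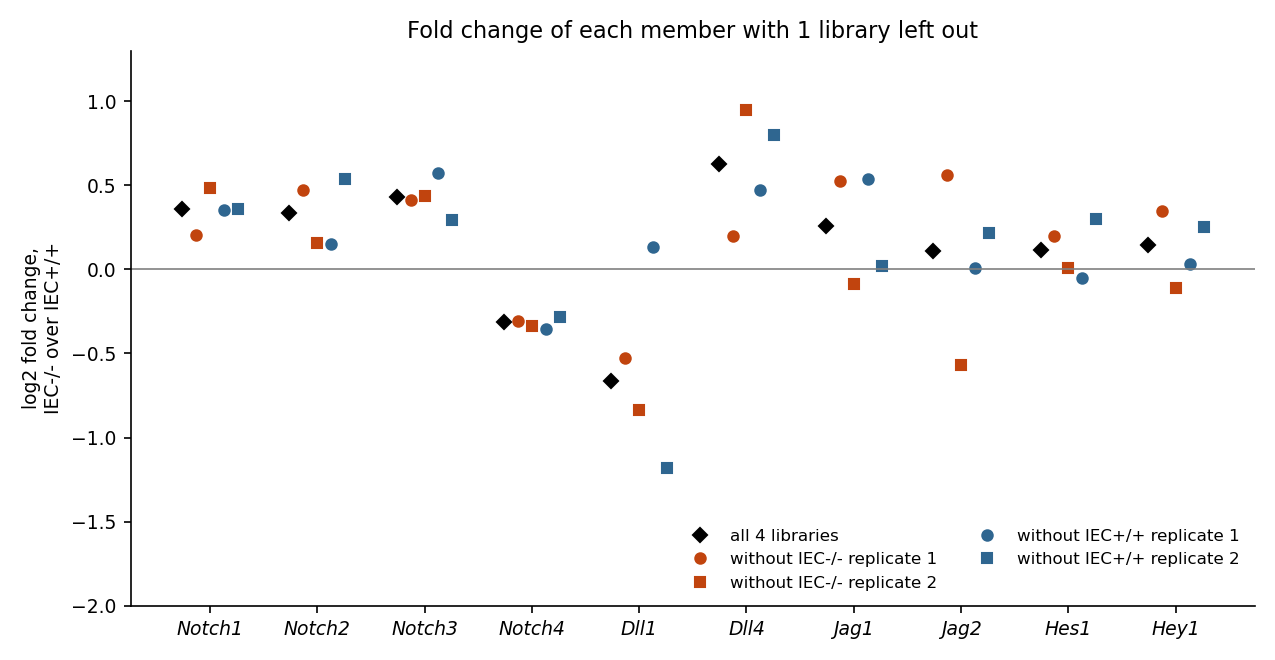
Log2 fold change of each member, IEC-/- over IEC+/+, from edgeR on all 4 libraries (black) and with 1 library left out (orange for a left-out IEC-/- library, blue for a left-out IEC+/+ library). Notch4 stays between -0.35 and -0.28, whereas Dll1, Jag1, Jag2, Hes1 and Hey1 have values on both sides of 0.

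Hes1 (chromosome 16, 30064384 to 30067796), the repressor through which Notch acts on crypt progenitors, had 90.8 and 104 CPM in IEC-/- libraries, against 79.0 and 101 CPM in IEC+/+. Replicate 2 was above replicate 1 in both groups, and the groups overlapped. The log2 fold change was 0.12 (SE 0.16, quasi-likelihood adjusted p = 0.793), and the interval of the ratio, 0.817 to 1.44, has its upper bound at a 1.44-fold higher level. Epithelial marker sums were lower in the IEC-/- libraries. The 12 general epithelial markers summed to 7138 and 6671 CPM in IEC-/- libraries, against 12083 and 10459 CPM in IEC+/+. Their log2 fold changes were negative for 12 of 12, beside 8066 of all 16637 genes tested. By the quasi-likelihood test 1 was called lower, beside 0.763% of all genes, and 10 were lower at an unadjusted p under 0.05, beside 9.12%. Per 1000 CPM of these markers, Hes1 had 12.7 and 15.6 CPM in IEC-/- libraries, against 6.54 and 9.63 CPM in IEC+/+, so that the groups did not overlap on that measure. Hes1 in CPM did overlap, so this separation rests on the lower marker sums used as divisor. The markers were not lowered evenly, with log2 fold changes from -2.86 to -0.07. Hes1 is made by other cells too, and whether its level per epithelial cell differed was not tested.

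Hey1 (chromosome 3, 8663359 to 8667256), a related repressor best known in vessels, had 13.6 and 18.7 CPM in IEC-/- libraries, against 13.5 and 15.7 CPM in IEC+/+. The lower libraries of the groups were nearly equal. The log2 fold change was 0.14 (SE 0.24, quasi-likelihood adjusted p = 0.833), with a ratio between 0.724 and 1.68.

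Levels of different genes were compared per kilobase of the longest coding transcript in GENCODE M21. Hes1 was the most abundant member, with 66.4 ± 6.35 CPM per kilobase in IEC-/- and 61.2 ± 10.5 in IEC+/+ (SD, n = 2 each). Notch1 followed with 17.7 ± 2.38 CPM per kilobase in IEC-/- and 13.8 ± 0.0231 in IEC+/+, and Dll4 with 14.6 ± 5.18 in IEC-/- and 9.46 ± 1.52 in IEC+/+. Notch1 and Dll4 overlapped among the IEC-/- libraries and did not among the IEC+/+ libraries. Per kilobase of all annotated exons the order of this pair depended on the group, with 11.8 for Notch1 and 14.2 for Dll4 in IEC-/- and 9.20 for both in IEC+/+. Hey1, Notch2, Jag2 and Jag1 formed a middle group of 5.62 to 6.65 CPM per kilobase in IEC-/- and 4.70 to 6.03 in IEC+/+, and neighbours in that order overlapped in their libraries. Notch4, Notch3 and Dll1 were lowest in both groups, with 3.26, 2.77 and 2.65 CPM per kilobase in IEC-/- and 4.05, 2.05 and 4.21 in IEC+/+. The libraries of Notch4 were above those of Notch3 in both groups by this length. Per kilobase of all exons the IEC-/- libraries had the reverse order, with 2.63 and 2.70 for Notch4 and 2.77 and 2.72 for Notch3. By the coding length, Dll1 reached the range of the middle genes in IEC+/+ replicate 1.

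Notch1 was the largest part of receptor mRNA by either length, with 62.1 and 54.6% of the receptor sum per kilobase in IEC-/- and 56.3 and 53.7% in IEC+/+ by the coding length. By the length of all exons, its share was 53.8 and 46.0% in IEC-/- and 48.2 and 45.7% in IEC+/+. Notch4 made up 10.3 and 11.2% in IEC-/- and 16.1% in each IEC+/+ library by the coding length, and it was the receptor whose shares did not overlap between the groups. Ligand mRNA was less even across libraries. The share of Dll4 was 63.2 and 37.7% in IEC-/- and 33.3 and 46.1% in IEC+/+, and that of Dll1 was 8.16 and 10.1% in IEC-/- and 23.8 and 10.5% in IEC+/+. Receptor sums were 31.2 and 29.3 CPM per kilobase in IEC-/- and 24.5 and 25.7 in IEC+/+, and ligand sums 28.9 and 29.1 in IEC-/- and 25.2 and 22.9 in IEC+/+. Both sums were thus higher in the libraries labelled IEC-/-, with no test made.

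**Figure D3:**
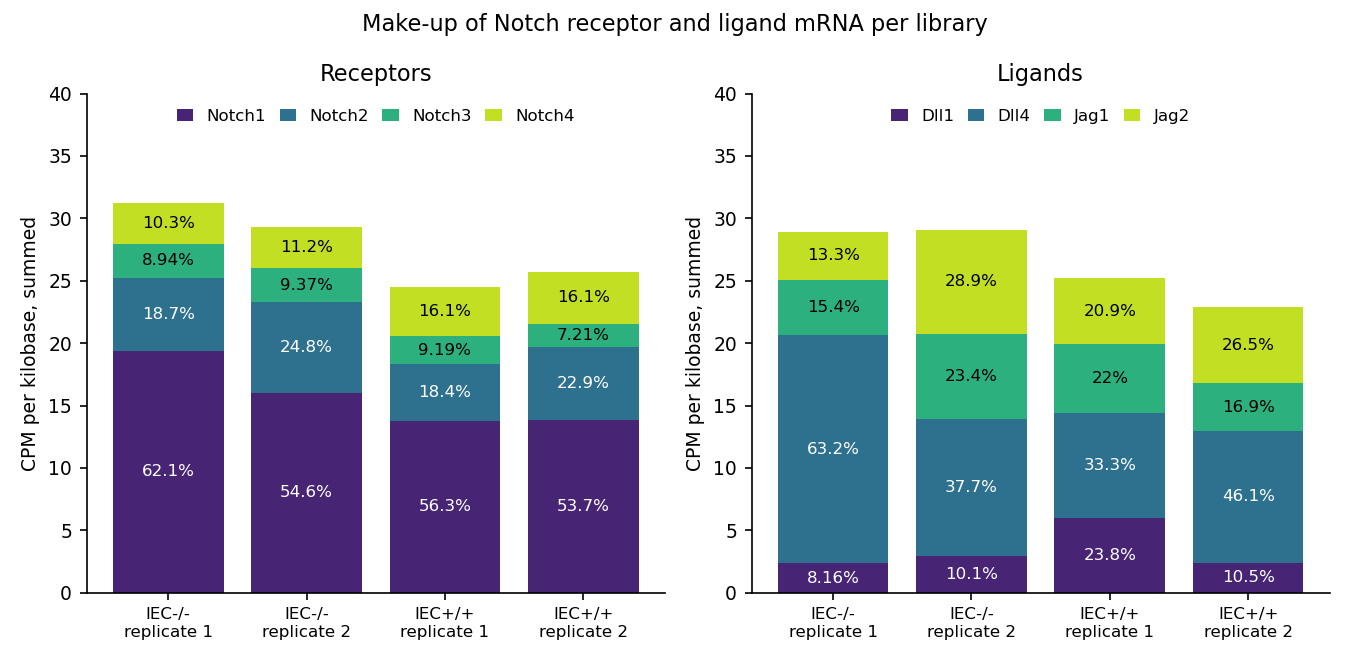
Summed level of the 4 receptor genes (left) and the 4 ligand genes (right) in CPM per kilobase of coding transcript, stacked by gene in each library, with each gene's percent of the sum written in its block. Notch1 is the largest receptor block in every library, and the Dll4 block is tallest in IEC-/- replicate 1.

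The remaining Notch machinery also gave no call by the quasi-likelihood test, though other tests called some genes. Of 66 pathway genes in 8 lists, 62 were tested and 0 passed over all genes, while an unadjusted p under 0.05 was found for 7 that were higher and 7 that were lower, beside 7.50% and 9.12% of all genes. DESeq2 called 10 pathway genes, 6 higher and 4 lower, when it called 7.77% of all genes. The exact test called 6, 3 in each direction, when it called 5.22% of all genes, and limma-voom 0. The median log2 fold change was 0.05, and groups did not overlap for 36 of the 62, or 58.1%, against 48.0% of all genes.

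Among ligand-like proteins, Dner, a neuronal Notch-binding membrane protein, had 7.41 and 11.7 CPM in IEC-/- libraries, against 2.43 and 2.12 CPM in IEC+/+. Both IEC-/- libraries were well above, and the log2 fold change of 2.07 (SE 0.35) had an adjusted p of 0.0731 by the quasi-likelihood test. Over its alternatives the adjusted p ran from 4.81e-05 by DESeq2 to 0.515, and it passed with no filter (0.0439) and without IEC-/- replicate 1 (0.0262). Dlk1, an imprinted ligand-like inhibitor, had 47.2 and 8.42 CPM in IEC-/- libraries, against 1.54 and 2.91 CPM in IEC+/+. Its log2 fold change was 3.64 (SE 0.88, adjusted p = 0.138 by the quasi-likelihood test), IEC-/- replicate 1 having 5.60 times the level of replicate 2. Over its alternatives the adjusted p ran from 0.00235 by the exact test to 0.655, and it was 0.00632 without IEC-/- replicate 2. Dll3, a divergent Delta-like protein that acts inside its own cell, was scarce, with 8 to 40 counts per library. Of the 4 genes of this list that were tested, 2 were under an unadjusted p of 0.05 by the quasi-likelihood test, both higher, beside 7.50% of all genes.

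Genes that process the receptor had mostly negative fold changes. Aph1a, a subunit of gamma-secretase, had 140 and 151 CPM in IEC-/- libraries, against 198 and 196 CPM in IEC+/+ libraries (log2 fold change -0.44, quasi-likelihood adjusted p = 0.164, and 0.0241 by DESeq2 to 0.649 over the alternatives). The 10 proteases and subunits had a median of -0.14, 8 with negative values, beside 8066 of all 16637 genes tested. By the quasi-likelihood test 2 were under an unadjusted p of 0.05, both lower, beside 9.12% of all genes. Lfng, a Golgi sugar transferase that tunes which ligands a receptor answers to, had 71.1 and 73.1 CPM in IEC-/- libraries, against 41.1 and 51.8 CPM in IEC+/+ libraries (log2 fold change 0.63, SE 0.15, quasi-likelihood adjusted p = 0.133, and 0.0180 by DESeq2 to 0.607 over the alternatives). In its list of 5, 1 gene was under an unadjusted p of 0.05 by the quasi-likelihood test, and was higher, beside 7.50% of all genes. The 6 ligand endocytosis genes had a median of -0.12, with 0 under that limit.

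In the nuclear complex, 10 of 10 genes had positive log2 fold changes, beside 8571 of all 16637 genes tested. Several were small, the lowest being 0.06 and the median 0.15. By the quasi-likelihood test 2 were under an unadjusted p of 0.05, both higher, beside 7.50% of all genes. Rbpj had 94.1 and 99.8 CPM in IEC-/- libraries, against 83.2 and 72.6 CPM in IEC+/+ libraries (log2 fold change 0.32, SE 0.13, quasi-likelihood adjusted p = 0.303). The Mastermind gene Maml2 had 18.0 and 14.9 CPM in IEC-/- libraries, against 8.30 and 5.98 CPM in IEC+/+, a log2 fold change of 1.21 (SE 0.27, adjusted p = 0.119 by the quasi-likelihood test, and 0.00294 by DESeq2 to 0.491 over the alternatives). Maml3 had 0.58 (adjusted p = 0.215). Among turnover genes, Numb, an adaptor that restrains Notch, had a log2 fold change of -0.34 and Dtx3, of the Deltex ubiquitin ligase family, 0.52 (quasi-likelihood adjusted p = 0.252 and 0.138). DESeq2 called Dtx3 (0.0448, with 0.609 as the highest over the alternatives) and not Numb, and the list of 10 had a median of 0.09.

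**Figure D4:**
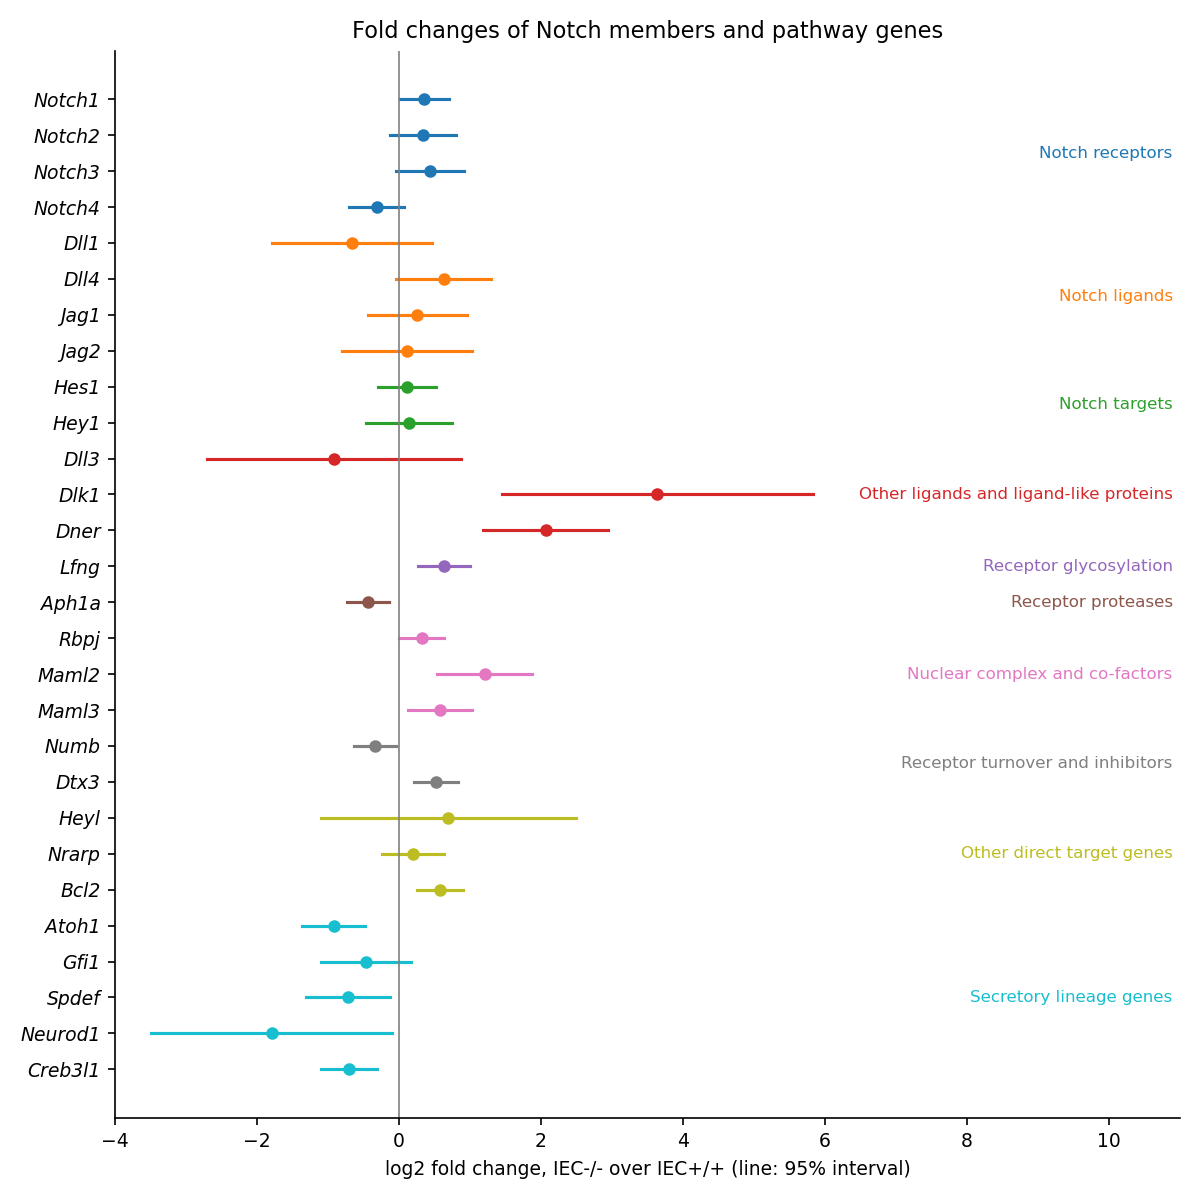
Log2 fold change of IEC-/- over IEC+/+ (horizontal axis; points, with lines for the 95% interval of each fit) for the 10 members and the pathway genes described, coloured by role. Intervals of the members other than Notch1 include 0. Those of Dner, Dlk1, Lfng, Aph1a, Maml2, Maml3, Numb, Dtx3, Bcl2, Atoh1, Spdef, Creb3l1 and Neurod1 do not. Neurod1 had only 8 to 45 counts per library. No gene shown passed by the quasi-likelihood test after adjustment over all genes. Of the genes shown, DESeq2 and the exact test both called Dner, Dlk1, Maml2, Atoh1 and Creb3l1, and DESeq2 alone called Bcl2, Lfng, Aph1a and Dtx3.

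Further target genes had fold changes in both directions. Nrarp, a feedback inhibitor that Notch switches on, had 27.8 and 23.8 CPM in IEC-/- libraries, against 21.0 and 24.1 CPM in IEC+/+ libraries (log2 fold change 0.20, SE 0.18, quasi-likelihood adjusted p = 0.649). Bcl2, an apoptosis inhibitor, had 90.0 and 77.5 CPM in IEC-/- libraries, against 55.0 and 57.7 CPM in IEC+/+ libraries (log2 fold change 0.57, quasi-likelihood adjusted p = 0.124, and 0.0151 by DESeq2 to 0.607 over the alternatives). Heyl had 3.78 and 3.62 CPM in IEC-/- libraries, against 3.78 and 0.795 CPM in IEC+/+, a single IEC+/+ library being low. Its log2 fold change was 0.69 (SE 0.72, quasi-likelihood adjusted p = 0.699) and turned to -0.0347 without that library. Hes5 was barely counted, with 5 and 8 reads in IEC-/- and 0 and 22 in IEC+/+, and was not tested. Of the 10 genes 8 were tested, with a median of 0.26. By the quasi-likelihood test 1 of them was higher at an unadjusted p under 0.05, beside 7.50% of all genes.

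Genes of the secretory lineage, which Notch holds down in the crypt through HES1, had mostly negative fold changes. Atoh1 had 15.4 and 15.1 CPM in IEC-/- libraries, against 26.6 and 31.1 CPM in IEC+/+. The IEC-/- libraries were nearly equal and well below, with a log2 fold change of -0.92 (SE 0.18) that did not pass by the quasi-likelihood test (adjusted p = 0.0903) and did by DESeq2 (0.000721) and the exact test (0.0185), with 0.492 as the highest over the alternatives. Spdef, which matures goblet cells, had 13.1 and 19.2 CPM in IEC-/- libraries, against 25.6 and 27.5 CPM in IEC+/+ libraries (log2 fold change -0.72, quasi-likelihood adjusted p = 0.235). Gfi1, a secretory transcription factor, had -0.46 (adjusted p = 0.441), and the enteroendocrine factor gene Neurod1 -1.79 (0.282). Neurod1 was scarce, with 11 and 8 counts in IEC-/- libraries, against 45 and 19 counts in IEC+/+. Creb3l1 had -0.70 (quasi-likelihood adjusted p = 0.124) and was called by DESeq2 (0.0105), by the exact test (0.0356) and without IEC-/- replicate 2 (0.0395), with 0.607 as the highest over the alternatives. Of 9 tested, 7 had negative values, beside 8066 of all 16637 genes, with a median of -0.70. By the quasi-likelihood test 4 of these were under an unadjusted p of 0.05, beside 9.12% of all genes. Goblet cell markers were lower too, with sums of 746 and 1445 CPM in IEC-/- libraries, against 5766 and 3618 CPM in IEC+/+, and none at 0. Of these 10 markers 3 were called lower by the quasi-likelihood test, beside 0.763% of all genes. An unadjusted p under 0.05 was found for 9 of them, all lower, beside 9.12% of all genes. The part of goblet cell content in the values of the secretory lineage genes was not tested.

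Promoter sequence was read for members and further targets from RefSeq on GRCm38.p6, in windows of 250 bases before to 50 after a start. Of the 10 members 8 had a window, 9 windows in all; Hes1 and Hey1 had none. The core TGGGAA bound by RBPJ, searched on both strands, was in 0 of the 9 members' windows and in 5 of 10 windows of the further targets, against 25.6% of 32851 windows. The core CTTTGA bound by TCF factors, the partners of beta-catenin, was in 1 of the 9 and in 16.0% of all. That window is of Jag1, shown because it is the single member with a TCF core near its start, and Hes5 is shown for its pair of RBPJ cores beside a count near 0. Capitals mark the cores on either strand, and both runs end 30 bases after the start.
Jag1, chr2:137116491-137116770, minus strand: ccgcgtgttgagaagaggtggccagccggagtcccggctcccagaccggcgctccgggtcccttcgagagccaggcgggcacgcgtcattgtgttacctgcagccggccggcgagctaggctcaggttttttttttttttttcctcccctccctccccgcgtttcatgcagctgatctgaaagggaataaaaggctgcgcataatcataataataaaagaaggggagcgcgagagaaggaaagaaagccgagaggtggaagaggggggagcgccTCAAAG
Hes5, chr4:154960673-154960952, plus strand: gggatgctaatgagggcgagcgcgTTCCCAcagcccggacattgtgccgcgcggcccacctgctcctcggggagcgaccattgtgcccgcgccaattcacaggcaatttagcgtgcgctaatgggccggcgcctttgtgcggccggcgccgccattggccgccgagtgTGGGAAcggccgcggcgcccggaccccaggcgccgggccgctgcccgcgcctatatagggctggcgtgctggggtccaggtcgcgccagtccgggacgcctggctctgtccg
The Jag1 core begins 24 bases after the start and reads on the opposite strand. The Hes5 cores begin 226 and 82 bases before the start. A match of letters is a description and does not show binding.

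Further cell type and sample handling lists are given as sums beside the members. Over all 16637 genes tested, 8571 log2 fold changes were positive and 8066 negative. Mature colonocyte markers summed to 117 and 222 CPM in IEC-/- libraries, against 1700 and 828 CPM in IEC+/+, with Slc51a at 0 in both IEC-/- libraries. Log2 fold changes were negative for 9 of 9 tested genes. By the quasi-likelihood test 2 were called lower, beside 0.763% of all genes, and 8 were lower at an unadjusted p under 0.05, beside 9.12%. Leukocyte markers summed to 1105 and 980 CPM in IEC-/- libraries, against 608 and 602 CPM in IEC+/+, with 11 of 12 log2 fold changes positive and 0 called (3 at an unadjusted p under 0.05). Stem and crypt base markers summed to 2532 and 2247 CPM in IEC-/- libraries, against 1684 and 1819 CPM in IEC+/+. Of these 10, 8 had positive log2 fold changes and 0 were called (6 at an unadjusted p under 0.05). In the leukocyte and the stem lists the genes under that limit were all higher in IEC-/-, beside 7.50% of all genes. Neural and glial markers summed to 24.2 and 14.3 CPM in IEC-/- libraries, against 34.1 and 38.0 CPM in IEC+/+, with S100b, Sox10 and Elavl4 at 0 in at least 1 library. Only 3 of these 8 genes were tested, 2 with positive and 1 with negative log2 fold changes, and 0 were called. The lower sum was thus not shared by most of the tested genes. Heat shock genes, listed as a possible sign of handling, summed to 3692 and 3642 CPM in IEC-/- libraries, against 5518 and 8682 CPM in IEC+/+. All 10 were lower in IEC-/- without overlap, beside 24.1% of all genes. By the quasi-likelihood test 0 were called, and 9 were under an unadjusted p of 0.05, all lower, beside 9.12% of all genes. Immediate-early genes summed to 1289 and 1355 CPM in IEC-/- libraries, against 1960 and 1531 CPM in IEC+/+. Of these 14 genes 12 had negative log2 fold changes and 0 were called. An unadjusted p under 0.05 was found for 3 of them by the quasi-likelihood test, all lower, beside 9.12% of all genes. Whether handling differed between the groups was not tested. What these differences contribute to the levels of the members was not tested.

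**Figure D5:**
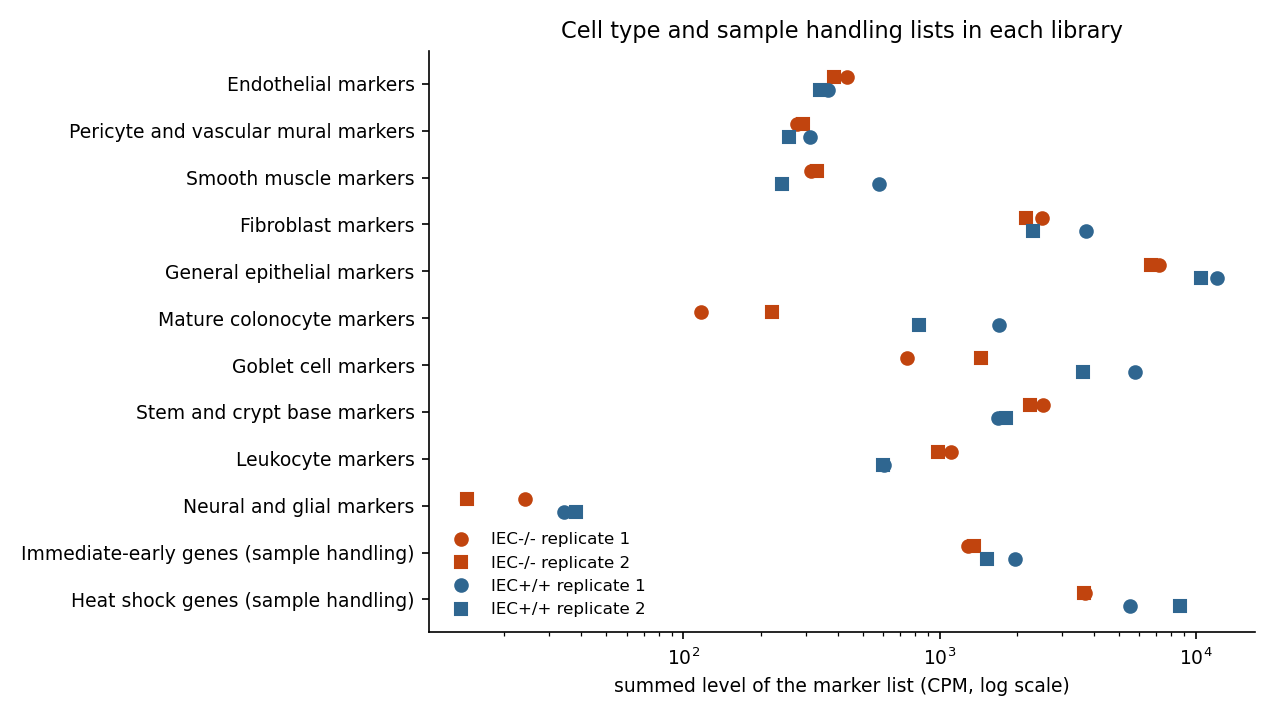
Summed level of each marker or handling list in CPM (log axis) in the libraries labelled IEC-/- (orange, upper points) and IEC+/+ (blue, lower points). Endothelial and mural lists lie close together in the 4 libraries, while colonocyte and goblet lists are lower in both IEC-/- libraries.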

How the data were processed

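Polyadenylated RNA of mouse colon cancer tissue was sequenced as paired reads, per the labels' protocols. The authors deposited raw counts, 1 whole number for each gene symbol and library. TopHat, limma, edgeR and the mm10 build are named in the submitters' processing notes, with no role; the counting tool, annotation and use of strand are not given in the sources used here.

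Counts were fitted with edgeR 4.0.16 in R 4.3.3 (TMM factors 0.955 to 1.05, default expression filter, quasi-likelihood F-test, Benjamini-Hochberg adjustment over 16637 genes, limit 0.05). Standard errors come from the F statistic. CPM are counts scaled to 1000000 per library with those factors. Intervals cover 95% and depend on 2 libraries per group. Alternatives were DESeq2 1.42.0, the exact test, limma-voom (limma 3.58.1), RLE and upper quartile scaling, no filter, a replicate block, leaving out each library and, added after the data were seen, the union of all exons as length. Lengths and positions are from GENCODE M21 on GRCm38, the assembly also called mm10.

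The members and lists were chosen with earlier results of these data known. Named beside the members are Gsk3b, 8 fixed pathway genes, the pathway genes with the smallest p up to 20 in all, and at most 2 abundant genes per marker list; some results are not reported here. The chi-square of counts per degree of freedom was 35.4 to 135 between libraries, so no library repeated another. The fits were tested on simulated data.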

Additional observations from a re-analysis of the deposited data

How the results depend on the processing

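The count of changed genes over the whole table, 147, was 1293 by DESeq2, 869 by the exact test, 78 by limma-voom, 376 with no filter on low counts, and 0 to 729 with 1 library left out. It was 143 with RLE and 105 with upper quartile scaling. The count of changed members, 0, was 0 under every planned setting other than leaving out a library, where it was 0 to 1, the 1 being Dll4 without IEC-/- replicate 2. For pathway genes, 0 in the main comparison, it was 10 by DESeq2, 6 by the exact test, 1 with no filter, and 0 to 2 with a library left out. The titles number the libraries of both groups 1 and 2. Deviations of same-numbered libraries correlated at 0.16, which with 2 pairs does not show that they are paired, and the replicate block gave 211 changed genes, 0 members and 0 pathway genes.

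Of 110 alternative values of the members, 103 kept their direction and their side of the limit, 1 passed the limit (Dll4) and 6 reversed. With a library left out, log2 fold changes ran from -1.18 to 0.13 for Dll1, -0.0850 to 0.54 for Jag1, -0.57 to 0.56 for Jag2, -0.0528 to 0.30 for Hes1, -0.11 to 0.34 for Hey1 and -0.0347 to 2.21 for Heyl. By limma-voom Jag2 had -0.0048. With the union of all exons as length, chosen after seeing the data, the mean share of Notch1 in receptor mRNA was 49.9% in IEC-/- and 47.0% in IEC+/+, against 58.3% and 55.0% with the coding length. The cause was not tested in any of these. Leaving out a library leaves a lone one, assumed to vary like the others. Precision rests on 2 libraries per group, and each member had at least 228 counts in every library.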
